A study of Rattus norvegicus with 16 samples.

Results

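DNA replication genes were followed in the kidney cortex of rats given ferric nitrilotriacetate (Fe-NTA), an iron chelate that injures the proximal tubule through oxidative stress. The 42 genes were chosen by name: they load the replicative helicase, run the replication fork, supply deoxynucleotides or rebuild chromatin behind the fork. A probe belonged to them where the gene name in the scanner files equalled one of the 42 symbols, which gave 59 of the 45598 probes on the array. Of the 42, 29 genes (41 probes) passed the filter on dim probes and were tested among 16021 genes.

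Total RNA of male Jcl:SD (Sprague-Dawley) rats from CLEA Japan was hybridised to 16 single-colour arrays. The rats were wild-type (8 arrays) or BRCA1+/- (8 arrays), heterozygous at a gene of homologous recombination. Treated rats were 4 weeks old at the first of 5 intraperitoneal injections per week. The dose was raised stepwise, with 5 mg iron/kg at the first 2 injections, 7 mg iron/kg at the next 3 and 10 mg iron/kg in weeks 2 and 3. Kidneys were sampled 48 h after the final injection. In each genotype, 2 arrays came from untreated rats, 3 from rats treated for 1 week and 3 from rats treated for 3 weeks. No age, vehicle or sampling time is given for the untreated rats, and the sources used here do not describe the BRCA1 allele. The 3-week rats were older and had received higher doses than the 1-week rats, so these differences cannot be told apart from time. The labels number the samples of a group but do not say that each is another rat, so p-values measure the spread between these samples. In bulk cortex, fewer cells of a type and less RNA per cell cannot be told apart.

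Before a cell copies its genome, the origin recognition complex (Orc1, Orc6) with Cdc6 and Cdt1 loads the ring of minichromosome maintenance proteins (Mcm2 to Mcm7) onto DNA. Cdc45 and the GINS proteins turn this ring into a working helicase, replication protein A coats the exposed strand, primase and polymerase alpha lay primers, and the clamp Pcna, loaded by replication factor C, tethers polymerases delta and epsilon. Most of these genes are transcribed shortly before S phase under E2F factors. Tubule cells of the adult cortex rarely divide, and surviving cells re-enter the cycle after tubular injury.

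Values are scaled log2 signals: log2 of the processed spot intensity minus the 75th percentile of that array, so 0 is a probe at that percentile. A difference of 1 is a doubling. A gene was called where limma gave a Benjamini-Hochberg adjusted p under 0.05 over all 16021 genes, and every adjusted p is of that kind unless another fit is named. A gene with no probe well above background on any array of a group has only a bound there. Such a change is written as "at least" a fold: the mean of the brighter group against, per dim array, the higher of its lowest measurable signal and the signal of the probe itself. Between 32.6% and 60.3% of probes were well above background on an array, and no probe was saturated. The wild-type controls were among the dimmest arrays, at 32.6% and 36.1%. Within groups, arrays correlated at 0.964 to 0.981 over probes, except for wild-type 1 week, where the lowest pair was at 0.905. The number of arrays, 2 or 3 a group, limits the precision of every value.

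In untreated cortex much of the replication machinery was at or under the limit of measurement. Of the 42 genes, 20 were well above background on at least 1 wild-type control array and 25 on at least 1 BRCA1+/- control array. After 1 week of Fe-NTA this number was 36 in each genotype. After 3 weeks it was 35 in wild-type and 29 in BRCA1+/- cortex. These counts take any probe of a gene. By the brightest probe, which stood for its gene, those measured on all 4 control arrays were Mcm2, Mcm4, Mcm7, Pcna, Rfc3, Rpa1, Rpa3, Prim1, Prim2, Fen1, Lig1, Rrm1, Rrm2, Tk1 and Dut, 15 in all. Mcm3 was measured on all 4 only by its other probe, described below, and is not among the 15. The share of all probes above background was 32.6% and 36.1% on wild-type controls, 33.0% to 45.7% after 1 week and 40.4% to 60.3% after 3 weeks. On BRCA1+/- arrays it was 40.8% and 48.2%, 37.3% to 51.5% and 42.8% to 48.7% in the same order. The part of array brightness in the counts of replication genes was not tested.

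A set of 13 genes did not pass the filter, under which some group had to show the probe well above background on each of its arrays. Cdt1, which recruits the helicase, the origin subunit Orc1, the polymerase subunits Pola2 and Pole2 and the maintenance methylase Dnmt1 were well above background on 0 of 16 arrays, in both genotypes and at all times. Gins2 reached this level on 1 array, and Cdc6 and Mcm10 on 2. Chaf1a and Rfc4 reached it on 4 arrays, Pola1 on 5, and Gins3 and Gins4 on 6. For Cdc6 and Mcm10 these were 1 wild-type and 1 BRCA1+/- array after 1 week of treatment. Pola1 was the only gene of the 13 with such a signal on a control array, 1 of BRCA1+/- cortex. The 29 that passed did so partly because they were bright in a treated group, so their counts do not stand for all 42.

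After 1 week of Fe-NTA, wild-type cortex had higher levels of genes from nearly every step of replication. Of the 29 genes tested, 23 rose and 0 fell, where 12.8% of all genes tested rose and 14.3% fell. The median change of the 29 was 2.07, beside -0.02 for all genes. It was 1.45 with dim values set at the detection limit and 0.73 with normexp background correction, which called 15. Over all genes normexp called 959 higher and 750 lower. It adds an offset of 50 to each signal, where the 75th percentile of an array was 20.1 to 78.5. Log2 changes of dim probes are therefore smaller under normexp by construction. For 25 of the 29 the 3 treated arrays all lay above both controls, which held for 20.2% of all genes, and for 0 they all lay below. Among the 15 genes measured on all 4 control arrays, 12 rose, where 8.17% of the 11597 genes with that property rose. Probes of the 15 needed no treated array to pass the filter, but the brightest probe was chosen over all arrays, treated ones included. By this choice Mcm3 is not among the 15. The 6 genes tested and not called were Orc6, Rfc2, Rfc5, Rpa3, Prim2 and Dut. Arrays sat on 2 slides, named in the file headers. The median change was 1.79 within slide 1 (2 treated arrays and 1 control) and 2.35 within slide 2 (1 of each).

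**Figure D1:**
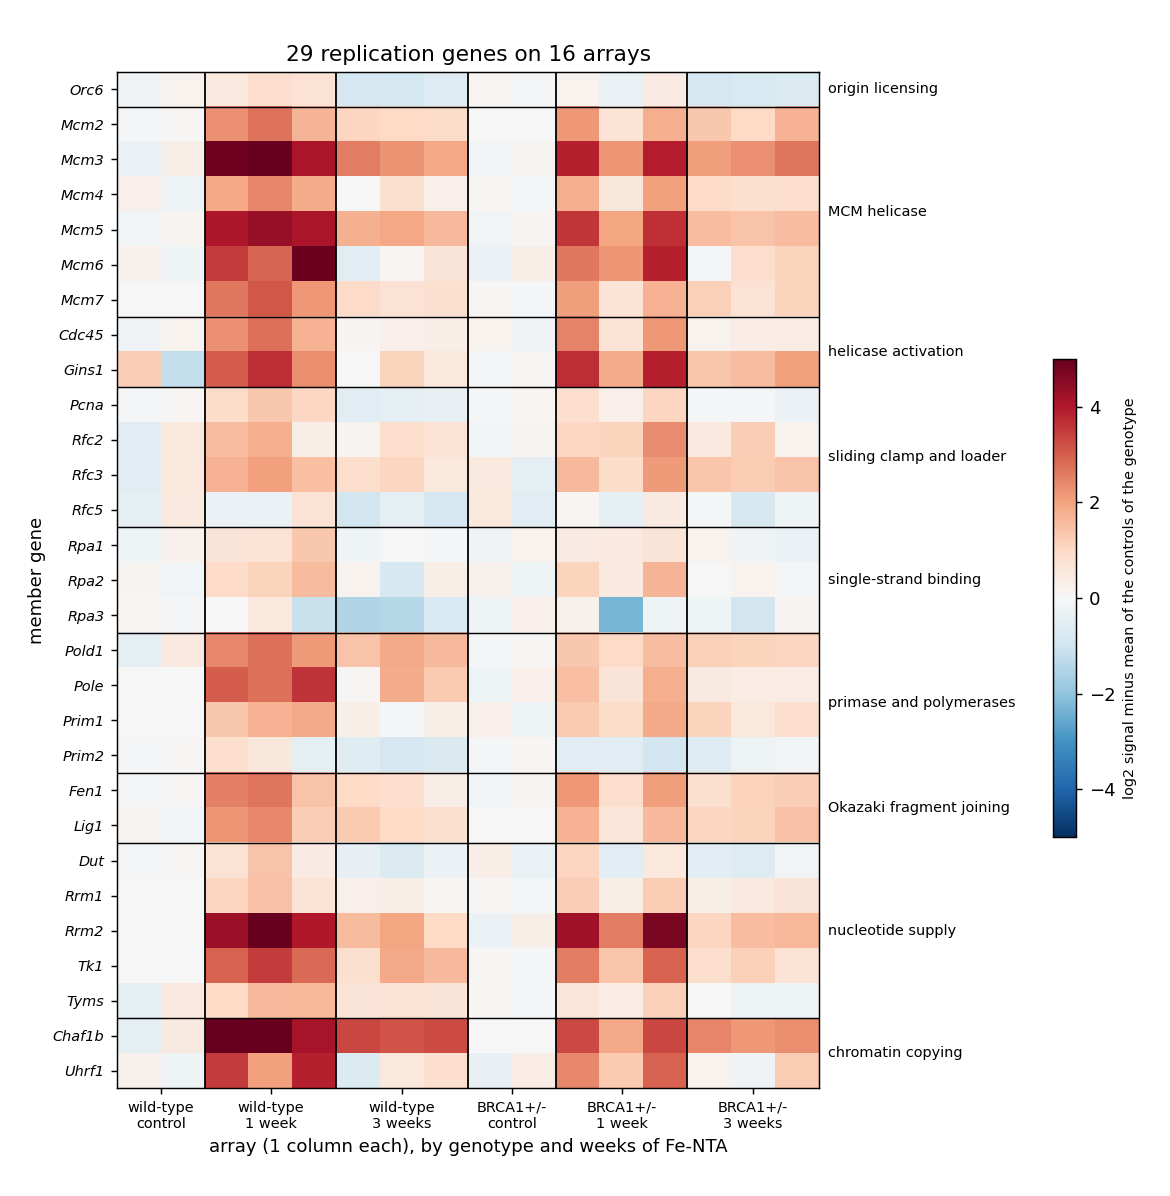
Heat map of the 29 tested replication genes (rows, grouped by role) on the 16 arrays (columns, grouped by genotype and weeks of Fe-NTA), coloured by log2 signal minus the mean of the 2 controls of the same genotype. Red fills most rows of both 1-week groups, the middle array of BRCA1+/- 1 week is paler than its neighbours, and the 3-week groups lie closer to their controls.

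All 6 genes of the helicase ring rose after 1 week in wild-type cortex and all 6 in BRCA1+/- cortex, Mcm3 by only 1 of its 2 probes. Mcm5 read -1.06 and -0.79 in wild-type controls, 3.12, 3.42 and 3.14 after 1 week and 0.86, 0.99 and 0.70 after 3 weeks. The 3 groups did not overlap, with the 3-week arrays between the controls and the 1-week arrays. Its change was 4.15 ± 0.38 (SE, adjusted p = 6.42e-06) at 1 week and 1.78 ± 0.38 (SE, adjusted p = 0.00702) at 3 weeks. The BRCA1+/- arrays of Mcm5 read -0.91 and -0.65 in controls, 2.78, 1.20 and 2.88 after 1 week and 0.76, 0.66 and 0.75 after 3 weeks. Here too every treated array lay above both controls. The changes were 3.07 ± 0.38 (SE, adjusted p = 0.000356) and 1.51 ± 0.38 (SE, adjusted p = 0.0174).

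Mcm2, a subunit of the gate through which the ring opens, was measured on all 16 arrays. It read 0.78 and 0.91 in wild-type controls, 3.14, 3.57 and 2.56 after 1 week and 1.94, 1.84 and 1.75 after 3 weeks, without overlap between the groups. It rose by 2.25 ± 0.39 (SE, adjusted p = 0.000681) at 1 week and its 3-week change of 1.00 ± 0.39 (SE, adjusted p = 0.101) was not called. For Mcm2, BRCA1+/- arrays read 0.91 and 0.91 in controls, 3.09, 1.59 and 2.71 after 1 week and 2.25, 1.92 and 2.67 after 3 weeks. The treated groups of BRCA1+/- rats overlapped each other, and both rose, by 1.56 and 1.37 (adjusted p = 0.0265 and 0.029). Mcm7, of the catalytic core, read 0.24 and 0.23 in wild-type controls and 2.86, 3.32 and 2.40 after 1 week. All 3 treated arrays were far above both controls, a change of 2.63 ± 0.36 (SE, adjusted p = 0.000115). Mcm4, which joins the same core, changed by 2.07 ± 0.38 (SE, adjusted p = 0.00108) in wild-type and 1.49 ± 0.38 (SE, adjusted p = 0.0291) in BRCA1+/- cortex at 1 week, and its values after 3 weeks, -0.23, 0.56 and 0.01 in wild-type, overlapped its controls at 0.02 and -0.49.

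Mcm6, the partner of Mcm2 and Mcm4 in the ring, was well above background on 0 control arrays of either genotype. It read 0.16, -0.42 and 1.55 after 1 week in wild-type cortex, against -3.15 and -3.54 in controls, and was at least 3.46-fold higher (adjusted p = 0.000289). After 1 week in BRCA1+/- cortex Mcm6 was at least 2.62-fold higher (adjusted p = 0.00815). After 3 weeks it read -3.92, -3.24 and -2.70 in wild-type cortex, and only 1 of these 3 arrays was well above background. All 3 BRCA1+/- arrays of 3 weeks, at -4.01, -3.01 and -2.79, were not well above background.

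Several helicase and nucleotide genes carried more than 1 probe, which allowed the same mRNA to be read at separate places. Among the 29, 11 genes had more than 1 probe that passed the filter. Both probes of Mcm2, Mcm5 and Rrm2 were called higher at 1 week in wild-type cortex, and only 1 of those of Mcm3. The following probe sequences are those further toward the 5′ end of their transcripts, with the only probe of Mcm6. They are shown because a second probe tells whether the rise of a gene holds away from its first probe. They are written 5′ to 3′ as the files give them, and capitals, in Mcm2 and Rrm2, mark a stop codon that ends an open reading frame at the last base.
Mcm2, transcript position 2692, chr4:122978031-122978090, minus strand (rn4): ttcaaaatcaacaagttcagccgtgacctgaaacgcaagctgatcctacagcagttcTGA
Mcm3, transcript position 264, chr9:19552188-19552641, minus strand (rn4): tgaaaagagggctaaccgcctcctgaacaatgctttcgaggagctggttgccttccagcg
Mcm5, transcript position 1989, chr19:13998935-13998994, plus strand (rn4): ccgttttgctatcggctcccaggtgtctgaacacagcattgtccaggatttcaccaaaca
Mcm6, transcript position 1758, chr13:41052148-41052207, minus strand (rn4): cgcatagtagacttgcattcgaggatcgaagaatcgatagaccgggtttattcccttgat
Rrm2, transcript position 1164, chr6:42357941-42358000, plus strand (rn4): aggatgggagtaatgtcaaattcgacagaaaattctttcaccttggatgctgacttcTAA
Each of these 60-base probes has at least 1 reading frame without an internal stop codon. Exon annotation of this build was not used here. The Mcm3 probe covers 454 bases of genome, more than its own length, so it crosses at least 1 intron.

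For Mcm2 the probe further 5′ was at least 1.84-fold higher in wild-type cortex at 1 week (adjusted p = 0.00103). Only a bound is given, since both of its controls were not well above background. The probe further 3′, used for the gene, rose by 2.25 ± 0.39 (SE, adjusted p = 0.000675). For Rrm2 the probe further 5′, with the same limit in its controls, was at least 7.42-fold higher (adjusted p = 4.39e-05). Its used probe rose by 4.48 ± 0.52 (SE, adjusted p = 3.16e-05). For Mcm5, with 1 of 2 controls measured by each probe, the changes were 3.91 ± 0.48 (SE, adjusted p = 4.75e-05) and 4.15 ± 0.38 (SE, adjusted p = 7.53e-06). The sizes of a bound and a measured change are not compared. The 3 probes further 5′ were single spots, well above background on 7, 14 and 10 of 16 arrays for Mcm2, Mcm5 and Rrm2. The used ones were spotted 10 times. These p-values, those of both Mcm3 probes and those of all further probes are from a limma fit of 20404 single probes, an alternative added after seeing the data.

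Other genes with a further probe that passed the filter were Mcm4, Lig1, Rrm1, Tk1, Dut, Rpa1 and Rpa3. Chaf1b, Pole and Mcm4 also had further probes that did not pass. Those of Chaf1b and Mcm4 were well above background on 0 of 16 arrays, and those of Pole on 0 and 2. At 1 week in wild-type cortex the further tested probes of Mcm4, Lig1, Rrm1 and Tk1 were called higher, as the used ones were. For Lig1 the further probe rose by 1.86 ± 0.26 (SE, adjusted p = 0.000112) and for Rrm1 by 1.45 ± 0.49 (SE, adjusted p = 0.0391). That of Dut was called higher, by 1.39 ± 0.41 (SE, adjusted p = 0.0204), where the used one was not. That of Rpa1 changed by 1.18 ± 0.43 (SE, adjusted p = 0.0572) and was not called, where the used one was. Neither probe of Rpa3 was called.

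The probes of Mcm3 disagreed. The probe used for the gene lies at position 2847 of the transcript, holds a stop codon in each reading frame and was spotted 10 times. It read -2.10 and -1.48 in wild-type controls, 3.06, 3.22 and 2.28 after 1 week and 0.75, 0.46 and 0.14 after 3 weeks, and was at least 18-fold higher at 1 week (adjusted p = 1.02e-05). The exon-spanning probe printed above read 0.75 and 0.94 in the same controls, 0.39, 0.92 and 0.67 after 1 week and 0.52, 0.09 and -0.06 after 3 weeks. These groups overlapped at 1 week, and the change was -0.18 ± 0.25 (SE, adjusted p = 0.638). At 1 week in BRCA1+/- cortex the pair changed by 3.34 ± 0.45 (SE, adjusted p = 0.000656) and -0.73 ± 0.25 (SE, adjusted p = 0.0962). The exon-spanning probe was well above background on all 16 arrays and the other on 13, missing both wild-type controls and 1 BRCA1+/- control. The rise of Mcm3 was thus seen with 1 of its 2 probes.

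**Figure D2:**
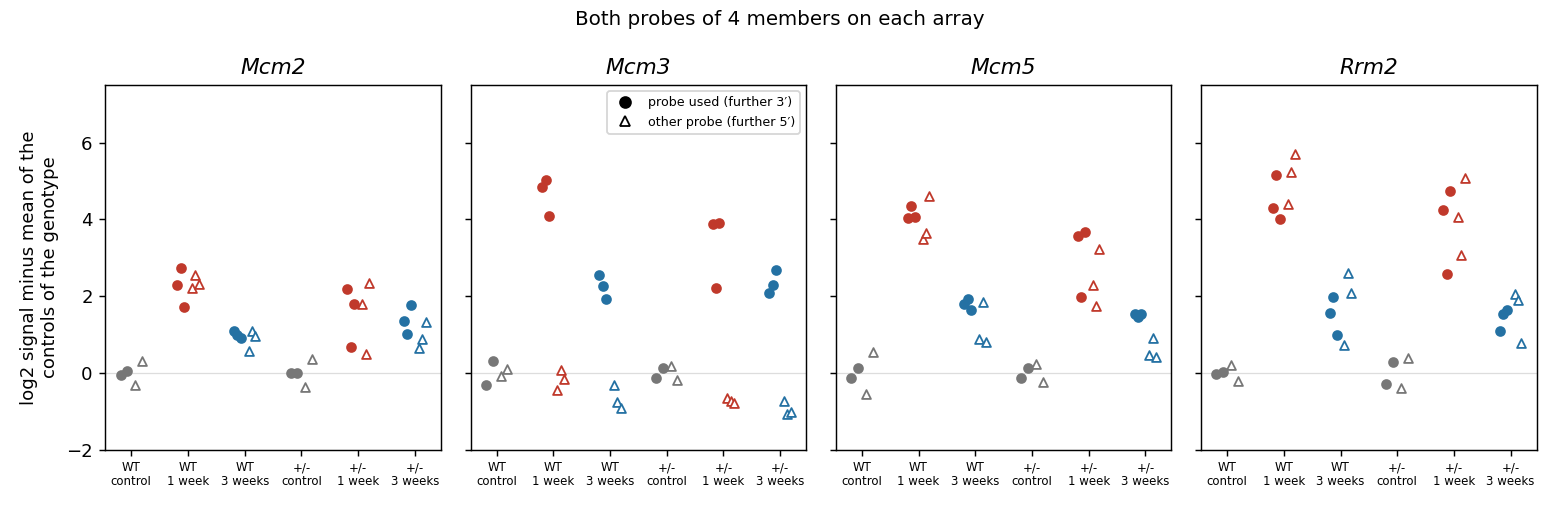
Log2 signal minus the mean of the controls of the genotype (vertical axis) for both probes of Mcm2, Mcm3, Mcm5 and Rrm2 in the 6 groups, 1 point per array. Filled circles are the probe used for the gene and open triangles its other probe. Controls of both genotypes for the Mcm2 and Rrm2 triangles were not well above background. Nor were wild-type controls of the Mcm3 circles, so the heights of all of these are not exact. Circles and triangles rise at 1 week for Mcm2, Mcm5 and Rrm2, and for Mcm3 the triangles stay near or below 0 while the circles rise.

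Upstream and downstream of the ring, detection was thinner. Of 4 licensing genes only Orc6, the smallest origin subunit, was tested. It read -1.35 and -0.96 in wild-type controls, -0.66, -0.28 and -0.43 after 1 week and -1.98, -2.04 and -1.81 after 3 weeks. The 1-week arrays were the highest and the 3-week arrays the lowest, without overlap. Orc6 was well above background on 1 of 2 controls and 1 of 3 arrays of 3 weeks. Its levels there, and the fitted sizes that use them, are not exact. Neither change against controls was called, at 0.70 ± 0.26 (SE, adjusted p = 0.056) and -0.79 ± 0.26 (SE, adjusted p = 0.0539), and the fall from 1 to 3 weeks was, at -1.49 ± 0.23 (SE, adjusted p = 0.00199).

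Of 6 helicase activation genes, Cdc45 and Gins1 were tested. Cdc45 read -1.89 and -1.52 in wild-type controls, 0.59, 1.04 and 0.05 after 1 week and -1.56, -1.44 and -1.39 after 3 weeks, and was at least 3.73-fold higher at 1 week (adjusted p = 0.00111). All 3 arrays of 3 weeks lay below those of 1 week, and the level in controls was not measured. Gins1 read -1.39 and -3.83, 0.42, 1.06 and -0.29 and -2.58, -1.50 and -2.09 in the same order and was at least 3.38-fold higher at 1 week (adjusted p = 0.0037). All 3 arrays of 3 weeks lay below those of 1 week. At 1 week in BRCA1+/- cortex Gins1 was at least 3.88-fold higher and Cdc45 higher by 1.78 ± 0.42 (SE, adjusted p = 0.0197).

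The clamp and its loader moved less. Pcna, the ring that tethers polymerases, was measured on all arrays and read 1.20 and 1.32 in wild-type controls, 2.16, 2.61 and 2.29 after 1 week and 0.67, 0.77 and 0.90 after 3 weeks. The 1-week arrays were highest and the 3-week arrays lay below both controls. It rose by 1.10 ± 0.26 (SE, adjusted p = 0.00596) at 1 week and fell by 1.57 from 1 to 3 weeks (adjusted p = 0.00199), and the 3-week change against controls of -0.47 ± 0.26 (SE, adjusted p = 0.242) was not called. BRCA1+/- arrays of Pcna read 0.97 and 1.13 in controls and 1.89, 1.31 and 2.13 after 1 week, a change of 0.73 ± 0.26 (SE, adjusted p = 0.105) that was not called.

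The loader subunits differed among themselves. Rfc3 read -0.95 and 0.10 in wild-type controls and 1.31, 1.64 and 1.07 after 1 week, and rose by 1.76 ± 0.39 (SE, adjusted p = 0.00404). It rose in BRCA1+/- cortex at both times, by 1.57 and 1.36 (adjusted p = 0.0267 and 0.0312). Rfc5, a subunit of the same complex, read -0.97 and 0.04 in wild-type controls and -0.76, -0.78 and 0.27 after 1 week. The groups overlapped, with a change of 0.04 ± 0.43 (SE, adjusted p = 0.961). Rfc2 was well above background on 0 wild-type controls and 2 of 3 arrays of 1 week, and was not called (adjusted p = 0.0942). Its 1-week mean did not exceed the floor of the controls, so no fold is given.

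Replication protein A, the single-strand binding trimer, split in the same way. Rpa1, the large subunit, read 0.16 and 0.61 in wild-type controls and 1.02, 1.12 and 1.73 after 1 week and rose by 0.91 ± 0.27 (SE, adjusted p = 0.0222). Rpa2, the middle subunit, was at least 2-fold higher (adjusted p = 0.026). Rpa3, the small subunit, read 0.09 and -0.13 in controls and 0.01, 0.51 and -1.12 after 1 week, with the groups overlapping and a change of -0.18 ± 0.62 (SE, adjusted p = 0.863). None of the 3 subunits was called in BRCA1+/- cortex at either time, and Rpa2 changed by 1.09 ± 0.37 (SE, adjusted p = 0.0894) at 1 week.

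Among primase and polymerase genes, Prim1, the catalytic primase subunit, read 0.22 and 0.20 in wild-type controls, 1.57, 1.96 and 2.12 after 1 week and 0.51, 0.16 and 0.50 after 3 weeks. The 1-week arrays stood clear of both other groups, a rise of 1.67 ± 0.31 (SE, adjusted p = 0.00102). Prim2, its regulatory partner, read 0.62 and 0.72, 1.56, 1.24 and 0.17 and 0.06, -0.15 and -0.07 in the same order. Replicate 3 of the 1-week group lay below both controls, and the change of 0.32 ± 0.34 (SE, adjusted p = 0.534) was not called. Prim2 fell from 1 to 3 weeks in wild-type cortex by 1.04 (adjusted p = 0.0459).

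Pold1, the catalytic subunit of polymerase delta, read -3.25 and -2.26 in wild-type controls, -0.34, 0.00 and -0.61 after 1 week and -1.33, -0.84 and -1.15 after 3 weeks. It was at least 2.06-fold higher at 1 week (adjusted p = 6.08e-05) and at least 1.19-fold higher at 3 weeks (adjusted p = 0.00286). Among BRCA1+/- controls 1 array gave a measured signal, and Pold1 rose by 1.28 ± 0.31 (SE, adjusted p = 0.0208) at 1 week and 1.12 ± 0.31 (SE, adjusted p = 0.0242) at 3 weeks. From 1 to 3 weeks Pold1 was called in neither genotype, with changes of -0.79 ± 0.27 (SE, adjusted p = 0.0908) and -0.16 ± 0.27 (SE, adjusted p = 0.777). Pole, the catalytic subunit of polymerase epsilon, was read by a single tested probe. The gene was at least 2.07-fold higher at 1 week in wild-type cortex (adjusted p = 0.000159). It fell by 2.07 from 1 to 3 weeks (adjusted p = 0.00591).

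Both genes that finish Okazaki fragments rose. Fen1, the flap nuclease, read 0.95 and 1.07 in wild-type controls, 3.52, 3.69 and 2.44 after 1 week and 2.00, 1.83 and 1.35 after 3 weeks, and rose by 2.21 ± 0.41 (SE, adjusted p = 0.00114) at 1 week. Lig1, the ligase that seals the nicks, read 1.62 and 1.37, 3.71, 3.92 and 2.74 and 2.80, 2.51 and 2.28 in the same order. It rose by 1.96 ± 0.37 (SE, adjusted p = 0.0014) at 1 week, and its change from 1 to 3 weeks, -0.92 ± 0.34 (SE, adjusted p = 0.107), was not called. BRCA1+/- arrays of Lig1 read 1.54 and 1.55 in controls, 3.30, 2.15 and 3.15 after 1 week and 2.62, 2.66 and 3.00 after 3 weeks. Its treated groups overlapped and both were called, at 1.32 and 1.21 (adjusted p = 0.0451 and 0.0406).

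Nucleotide supply was led by Rrm2, the subunit of ribonucleotide reductase that is made in S phase. It read 0.42 and 0.49 in wild-type controls, 4.74, 5.61 and 4.46 after 1 week and 2.02, 2.44 and 1.45 after 3 weeks. The groups did not overlap, and the 3-week arrays lay between the others. Rrm2 rose by 4.48 ± 0.52 (SE, adjusted p = 3.13e-05) at 1 week and fell by 2.97 from 1 to 3 weeks (adjusted p = 0.00199). The BRCA1+/- arrays of Rrm2 read -0.20 and 0.36 in controls, 4.33, 2.65 and 4.81 after 1 week and 1.17, 1.62 and 1.73 after 3 weeks. It rose by 3.85 ± 0.52 (SE, adjusted p = 0.00058) and fell again by 2.42 (adjusted p = 0.0408), the only one of the 29 called between these times in this genotype. Rrm1, the large subunit that pairs with it, read 2.50 and 2.54 in wild-type controls and 3.61, 3.99 and 3.22 after 1 week, a rise of 1.08 ± 0.31 (SE, adjusted p = 0.0171).

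Tk1, the cytosolic thymidine kinase, read -0.24 and -0.27 in wild-type controls, 2.70, 3.25 and 2.56 after 1 week and 0.54, 1.65 and 1.35 after 3 weeks. It rose by 3.09 ± 0.42 (SE, adjusted p = 0.000104) and, by this probe, was higher after 3 weeks, by 1.43 ± 0.42 (SE, adjusted p = 0.0327). The 3-week arrays all lay between the other groups. The further probe, not well above background in wild-type controls and on 1 of 3 arrays of 3 weeks, was at least 1.35-fold higher at 1 week and was not called at 3 weeks (adjusted p = 0.987). Tyms, the thymidylate synthase, rose by 1.42 ± 0.32 (SE, adjusted p = 0.00447) at 1 week in wild-type cortex and changed by 0.72 ± 0.32 (SE, adjusted p = 0.198) in BRCA1+/- cortex. Dut, which clears dUTP, read 0.97 and 1.07 in wild-type controls, 1.74, 2.45 and 1.45 after 1 week and 0.61, 0.34 and 0.74 after 3 weeks. Its change at 1 week, 0.86 ± 0.41 (SE, adjusted p = 0.14), was not called, and its drop by 1.32 from 1 to 3 weeks was (adjusted p = 0.0389).

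Of the genes that copy chromatin states, Chaf1b is a subunit of the histone chaperone at the fork. By its only tested probe it was called higher in all 4 comparisons with controls. It read -2.92 and -2.01 in wild-type controls, 2.78, 2.97 and 1.67 after 1 week and 0.87, 0.66 and 0.78 after 3 weeks. It was at least 14.3-fold higher at 1 week (adjusted p = 5.09e-06) and at least 4.38-fold higher at 3 weeks (adjusted p = 0.000375), with no overlap. BRCA1+/- arrays of Chaf1b read -1.17 and -1.24 in controls, 2.11, 0.70 and 2.13 after 1 week and 1.24, 0.97 and 1.11 after 3 weeks. It rose by 2.85 ± 0.44 (SE, adjusted p = 0.00139) and 2.31 ± 0.44 (SE, adjusted p = 0.00344). Uhrf1, which brings the maintenance methylase to new DNA, was at least 2.07-fold higher at 1 week in wild-type cortex (adjusted p = 0.0016) and fell by 3 weeks (adjusted p = 0.00496), when 1 of 3 arrays was well above background.

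**Figure D3:**
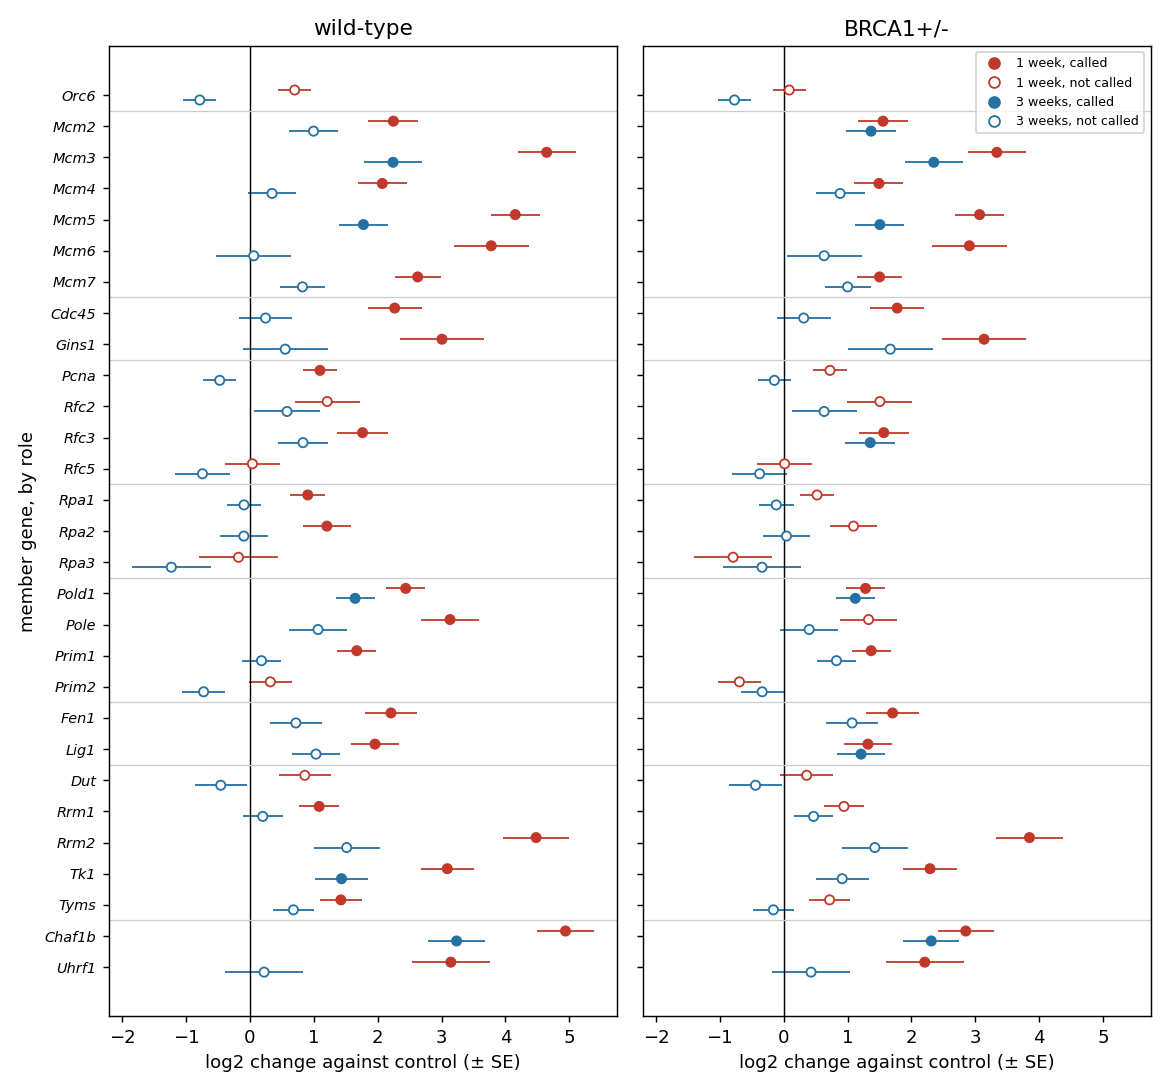
Log2 change against the controls of the same genotype (horizontal axis, ± SE) for each of the 29 genes by role, after 1 week (red) and 3 weeks (blue), with filled points for called changes. Genes not well above background in controls, and Mcm3 in wild-type cortex, are drawn at their fitted change, which is not a bound. The 1-week points lie right of the 3-week points in nearly every row, and 3 weeks keeps 5 filled points in wild-type and 7 in BRCA1+/- cortex.

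After 3 weeks the rise was much smaller. In wild-type cortex 5 of the 29 were higher than in controls and 0 lower, where 8.73% of all genes were higher and 5.56% lower. These were Mcm3 and Tk1, each by 1 of 2 probes, and Mcm5, Pold1 and Chaf1b. The 5 are a share nearer to that of all genes than the 23 of 1 week. Without overlap 14 lay above and 5 below their controls, which held for 28.2% and 29% of all genes. Of the 15 genes measured on all controls 1 was higher, beside 5.23% of such genes. The count of 5 depended on single arrays: it was 1 without wild-type control replicate 1, and 9 without wild-type 1-week replicate 3 (7 higher, 2 lower) or BRCA1+/- 1-week replicate 2 (8 higher, 1 lower). It was 0 with normexp background correction, where 609 of all genes were higher and 216 lower. The median change was then -0.03 in place of 0.55. With dim values set at the detection limit the count was 2 and the median 0.07. Compared with 1 week directly, 21 of the 29 were lower at 3 weeks and 0 higher, where 2.78% of all genes were lower and 5.56% higher, and 26 did not overlap between the groups, all lower, which held for 9.33% of all genes. Of the 15 genes measured on all controls 11 were lower, where 2.12% of such genes were. The median change from 1 to 3 weeks was -1.49, beside 0.04 for all genes. It was -0.78 with normexp background correction, -1.46 within slide 1 (2 arrays of each time) and -1.64 within slide 2 (1 of each). By fitted means, dim controls included, the 3-week mean of 21 genes lay between control and 1 week, and that of 7 at or below control.

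The 8 genes not called between 1 and 3 weeks in wild-type cortex were Rfc2, Rfc3, Rfc5, Rpa3, Pold1, Lig1, Rrm1 and Tyms. Those called run from the licensing subunit Orc6 through all 6 Mcm genes, Cdc45 and Gins1 to the chromatin genes Chaf1b and Uhrf1. Rrm2 dropped by 2.97. Orc6, Mcm6 and Uhrf1 were well above background on only 1 of the 3 arrays of 3 weeks, so the size of their drops is not measured.

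In BRCA1+/- cortex replication genes were also higher at 1 week. Of the 29 genes, 17 were higher than in BRCA1+/- controls and 0 lower, where 4.26% of all genes were higher and 3.2% lower. The median change was 1.49, beside -0.04 for all genes. It was 0.84 with dim values set at the detection limit and 0.62 with normexp background correction. Within slide 1 (1 treated array and 1 control) it was 1.68 and within slide 2 (2 treated arrays and 1 control) 1.28. In 24 genes all treated arrays lay above both controls, which held for 21.1% of all genes. Of the 15 genes measured on all controls, 9 were higher, where 2.15% of such genes were. All 6 Mcm genes, Cdc45, Gins1, Rfc3, Prim1, Pold1, Fen1, Lig1, Rrm2, Tk1, Chaf1b and Uhrf1 were called. Uhrf1 was well above background on 0 controls and 1 of 3 treated arrays here, and its bound was at least 1.07-fold. The 12 that were not were Orc6, Pcna, Rfc2, Rfc5, Rpa1, Rpa2, Rpa3, Prim2, Pole, Rrm1, Tyms and Dut. The count of 17 was 6 without control replicate 2, 7 without control replicate 1 or 1-week replicate 3, 8 without 1-week replicate 1 and 21 without 1-week replicate 2. It was 6 with normexp background correction, where 176 of all genes were higher and 261 lower.

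Replicate 2 of the BRCA1+/- 1-week group stood apart. It was the lowest of its group in 26 of the 29 genes and lay on average 0.73 below the group mean, where replicates 1 and 3 lay 0.27 and 0.47 above. On the same array, the mean of 8 tubular injury markers was 3.71, beside 4.57 and 4.05 on replicates 1 and 3. The mean of 12 proximal tubule markers was 5.75, beside 5.49 and 4.65. The part of injury extent in the level of replication genes on this array was not tested.

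After 3 weeks, 7 of the 29 were higher than in BRCA1+/- controls and 0 lower, where 9.32% of all genes were higher and 6.53% lower. These were Mcm2, Mcm3 by 1 of its 2 probes, Mcm5, Rfc3, Pold1, Lig1 and Chaf1b. The other probe of Mcm3 changed by -0.94, where the used one changed by 2.35. Further probes of Mcm5 and Lig1 changed by 0.60 and 0.50, where the used ones changed by 1.51 and 1.21. That of Mcm2 was well above background on 0 controls and 1 treated array. The median change of the 29 was 0.63, or 0.19 with normexp background correction. Without overlap 18 lay above and 2 below their controls, which held for 32.1% and 28.9% of all genes. Of the 15 genes measured on all controls 3 were higher, beside 6.75% of such genes. The count of 7 was 2 without control replicate 2 or 3-week replicate 3, 3 without control replicate 1 or 3-week replicate 1, 4 without 3-week replicate 2 and 11 (10 higher, 1 lower) without wild-type 1-week replicate 3. Between 1 and 3 weeks only Rrm2 was called, lower, where 0.119% of all genes and 0.0431% of those measured on all controls were lower and 0.187% of all genes higher. The median change from 1 to 3 weeks was -0.80, or -0.34 with normexp background correction, and 12 genes were lower at 3 weeks without overlap, which held for 9.34% of all genes. Without 1-week replicate 2, 4 were called lower. Leaving out wild-type 1-week replicate 3 gave 3, leaving out wild-type 1-week replicate 1 or 2 gave 1, and each of the other 12 arrays gave 0.

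No gene of the 29 was called between the genotypes. BRCA1+/- against wild-type gave 0 called genes in controls, at 1 week and at 3 weeks, where 0% of all genes were called in controls and at 3 weeks, and 0.493% were higher and 0.0687% lower at 1 week. By limma at an unadjusted p under 0.05 there were 1, 11 and 1. No share of all genes at this unadjusted threshold is given, here or for the interaction below, so these counts are not read further. Without overlap at 1 week, 6 genes were lower in BRCA1+/- cortex and 0 higher, which held for 4.54% and 7.81% of all genes. At 1 week 28 of the 29 had lower means in BRCA1+/- cortex, with a median difference of -0.63, beside 0.02 for all genes. Without BRCA1+/- replicate 2 the median was -0.34 and 26 were lower. With normexp background correction it was -0.31, within slide 1 it was -0.24 and within slide 2 -1.01. The smallest adjusted p was that of Uhrf1 (0.123), which passed the filter only through the wild-type 1-week arrays and was well above background on 1 of 3 BRCA1+/- ones, so no size is read from it. The interaction of genotype with treatment gave 0 called genes at 1 week (4 at an unadjusted p under 0.05) and 0 at 3 weeks (0 unadjusted), where 0% of all genes were called. The smallest interaction p at 1 week was that of Chaf1b (adjusted p = 0.39), whose wild-type controls were not well above background, so the size of the difference is not measured. A p that misses the threshold does not show that the genotypes respond alike.

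Of 27 tested regulators of S phase entry, 14 rose and 1 fell at 1 week in wild-type cortex, where 12.8% and 14.3% of all genes did. Their median change was 0.97. The 1 that fell was Rbl2, a pocket protein named after its value was seen, at -0.87. Ccna2, the cyclin of S phase, read -2.33 and -2.93 in wild-type controls, 1.30, 1.82 and 1.70 after 1 week and -2.21, -1.58 and -2.01 after 3 weeks. It was at least 7.83-fold higher at 1 week (adjusted p = 2.68e-05), and fell by 3.54 by 3 weeks (adjusted p = 0.000969). Ccne1 and Ccne2, the cyclins that start S phase, were at least 2.38-fold and at least 2.57-fold higher at 1 week (adjusted p = 0.000152 and 0.00852). Myc, a growth factor-responsive transcription factor, was at least 3.25-fold higher at 1 week and at least 2.42-fold higher at 3 weeks (adjusted p = 3.22e-05 and 0.000376). E2f1, an activator of replication genes, read 0.00 and 0.01 in wild-type controls and 0.03, 0.18 and 1.02 after 1 week, and its change of 0.41 ± 0.31 (SE, adjusted p = 0.363) was not called.

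Cdkn1a, the inhibitor of cyclin-dependent kinases known as p21, was high at both times. It read -1.88 and -2.94 in wild-type controls, 1.70, 2.32 and 1.34 after 1 week and 1.92, 2.42 and 2.90 after 3 weeks, at least 8.87-fold and at least 13.7-fold higher (adjusted p = 5.09e-06 and 4.1e-06). The treated groups overlapped, with a difference of 0.62 ± 0.33 (SE, adjusted p = 0.276) between them. BRCA1+/- arrays of Cdkn1a read -1.46 and -1.62 in controls, 2.05, 2.10 and 2.54 after 1 week and 1.64, 1.79 and 2.14 after 3 weeks. All treated arrays were above both controls in each genotype. Counts of G1/S regulators elsewhere were 4 higher and 0 lower at 3 weeks in wild-type cortex, 7 and 0 at 1 week and 5 and 0 at 3 weeks in BRCA1+/- cortex, beside 8.73%, 4.26% and 9.32% of all genes higher. From 1 to 3 weeks 7 fell in wild-type and 1, Ccna2, in BRCA1+/- cortex. Gmnn, the inhibitor of Cdt1, did not pass the filter.

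Other genes of replication, listed apart from the 42, moved less uniformly. Of 19 tested, 5 rose and 3 fell at 1 week in wild-type cortex, with a median of 0.36. Top2a, which untangles copied chromosomes, was at least 1.68-fold higher (adjusted p = 0.0015), and Dscc1, part of an alternative clamp loader, at least 1.91-fold higher (adjusted p = 0.00429). Ssrp1, a subunit of the histone chaperone FACT, rose by 1.32 ± 0.31 (SE, adjusted p = 0.00517). Named after their values were seen, Mcmbp (0.89) and the polymerase delta subunit Pold2 (1.28) also rose. Orc4 (-0.81), Pole3 (-0.91) and Rnaseh2b (-0.83) fell. At 3 weeks 2 rose and 1 fell in wild-type cortex. At 1 week in BRCA1+/- cortex 2 rose and 0 fell, and at 3 weeks 1 rose and 1 fell. From 1 to 3 weeks 3 fell in wild-type and 0 in BRCA1+/- cortex.

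Nucleotide genes outside the 42 were divided. At 1 week in wild-type cortex 3 of 15 rose and 4 fell. Ctps1, which makes CTP, rose by 2.01 ± 0.33 (SE, adjusted p = 0.000406) and Impdh2, of guanine nucleotide synthesis, by 1.69 ± 0.27 (SE, adjusted p = 0.000368). Cad, of pyrimidine synthesis and named after its value was seen, rose by 1.32. Shmt1 (-1.09) and the mitochondrial kinases Tk2 (-0.91) and Dguok (-1.31), also named after their values were seen, were among those that fell at 1 week. Rrm2b did not pass the filter.

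Of 6 tested genes of replication-coupled chromatin, 3 rose and 0 fell at 1 week in wild-type cortex, and the same 3 fell from 1 to 3 weeks. Nasp, a histone chaperone, rose by 1.72 ± 0.34 (SE, adjusted p = 0.00157). Ezh2, the methyltransferase of Polycomb, was at least 1.41-fold higher (adjusted p = 0.00615) and Rbbp7, a histone binding protein, rose by 0.74 ± 0.24 (SE, adjusted p = 0.0314). At 3 weeks 0 were called in either genotype, and at 1 week in BRCA1+/- cortex Nasp alone was, at 1.30 ± 0.34 (SE, adjusted p = 0.0297).

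Cell type markers moved along with these groups. Proximal tubule markers were well above background for 12 of 12 genes on every array. Their mean was 6.94 to 7.16 on wild-type controls, 3.05 to 4.17 after 1 week and 5.41 to 6.03 after 3 weeks, and 11 of 12 fell at 1 week. In BRCA1+/- cortex it was 6.65 to 7.03, 4.65 to 5.75 and 4.92 to 5.97, and 4 fell at 1 week. The mean of 8 tubular injury markers was 0.53 to 0.58 on wild-type controls, 4.60 to 5.07 after 1 week and 3.85 to 4.39 after 3 weeks, and 6 of 8 rose at each time. The part of these shifts in the change of the replication genes was not tested.

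Most macrophage markers were higher at both times. Of 10 such genes, 6 or 7 were well above background on wild-type controls, 8 to 10 after 1 week and 9 or 10 after 3 weeks. Their mean was -0.39 to -0.13 on wild-type controls, 0.79 to 1.79 after 1 week and 1.53 to 2.06 after 3 weeks, with 6 and 7 genes called higher and 0 called between 1 and 3 weeks. In BRCA1+/- cortex it was -0.70 to -0.28, 0.85 to 1.27 and 1.58 to 2.11, with 7 and 8 called higher. Fibroblast markers rose in 5 of 8 genes at each time in wild-type cortex, with means of 0.76 to 0.91, 2.20 to 3.18 and 2.17 to 2.96. Of 13 lymphocyte markers 4 were tested and 0 called in either genotype at either time. Of 10 erythroid precursor markers 8 were tested, and 4 fell at 1 week and 5 at 3 weeks in wild-type cortex. On wild-type arrays the mean of the 29 replication genes was -0.79 to -0.64 in controls, 1.23 to 1.65 after 1 week and -0.30 to -0.07 after 3 weeks.

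**Figure D4:**
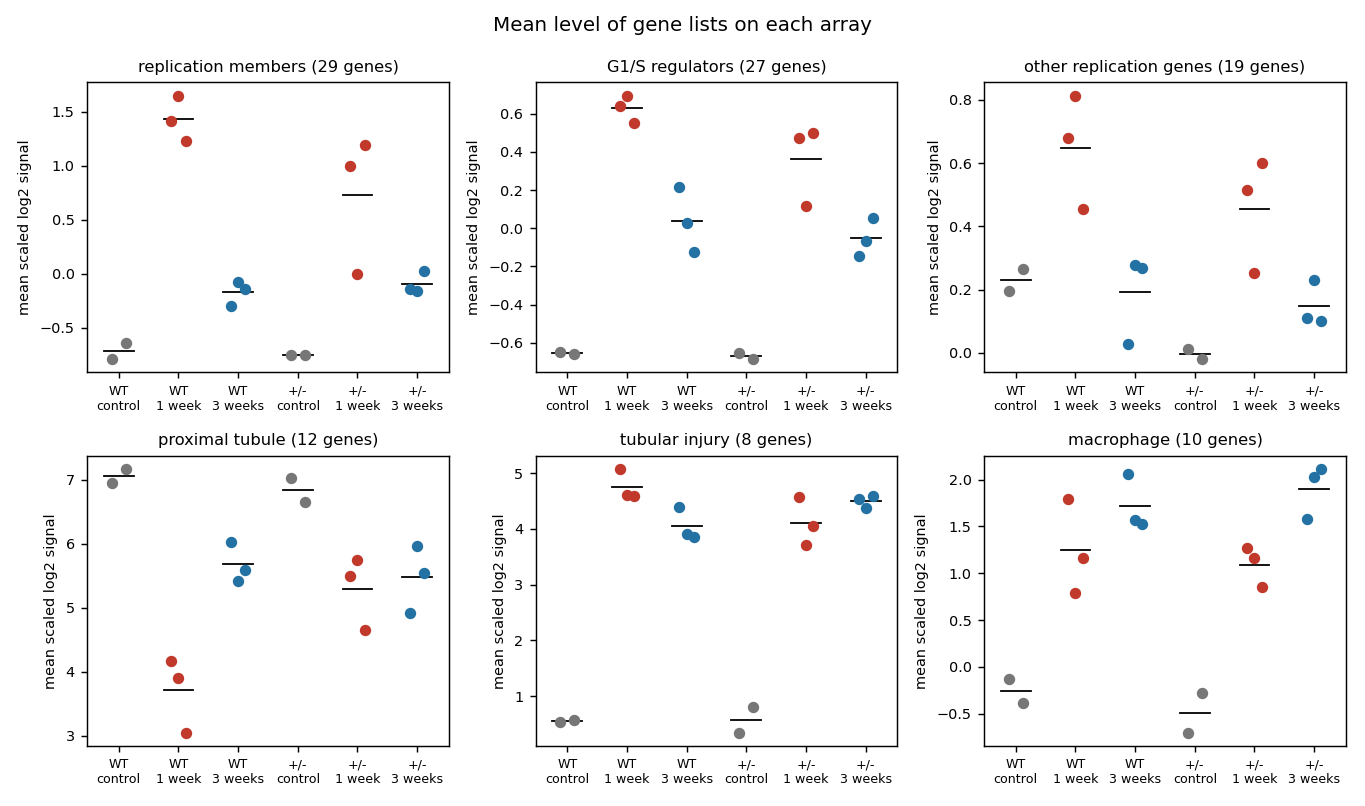
Mean scaled log2 signal over the tested genes of 6 lists (vertical axis, each panel with its own range) on each array, by group (WT, wild-type; +/-, BRCA1+/-), with a line at the group mean. The replication genes, G1/S regulators and other replication genes peak at 1 week, proximal tubule markers are lowest at 1 week in wild-type cortex, and macrophage markers are highest at 3 weeks.

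Promoters of these genes often held an E2F-type motif, which played no part in choosing them. RefSeq promoters (GRCr8, 250 bases before to 50 after the transcription start) were found for 36 of the 42 genes. They were searched on both strands for the motifs TTTCCCGC, TTTGGCGC, TTTCGCGC and TTTGCCGC, which can overlap each other on opposite strands. At least 1 was present in 16 of 36 promoters (44.4%), beside 2.25% of all 27457 promoters and 2.82% of the 19005 of protein-coding genes. Among 20083 promoters at least as rich in G and C as the poorest of the 36, the share was 2.85%. The motif was in 11 of the 21 promoters of genes that rose in wild-type cortex at 1 week, 0 of 5 of tested genes that were not called and 5 of 10 of genes not tested. The motif CCAAT was in 22 of 36 (61.1%), beside 37.7% of all promoters. GGGCGG, the letters of an SP1 box, was in 24 of 36 (66.7%), beside 34.9% of all promoters and 46.6% of those as rich in G and C. TTTGAA, the letters of the cell cycle homology region of mitotic genes, was in 3 of 36 (8.33%). It was in 18.1% of all promoters and 12.3% of those as rich in G and C. The 120 bases before the start are printed for 4 genes that rose, 5′ to 3′ on the coding strand, with the E2F-type letters in capitals.
Mcm2, chr4:122918095-122918214, minus strand (GRCr8): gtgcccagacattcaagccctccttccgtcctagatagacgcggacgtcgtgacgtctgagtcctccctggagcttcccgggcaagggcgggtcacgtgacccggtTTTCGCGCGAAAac
Mcm5, chr19:13488693-13488812, plus strand (GRCr8): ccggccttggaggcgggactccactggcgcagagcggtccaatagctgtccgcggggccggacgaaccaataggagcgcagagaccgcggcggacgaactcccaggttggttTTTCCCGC
Gins1, chr3:160184800-160184919, plus strand (GRCr8): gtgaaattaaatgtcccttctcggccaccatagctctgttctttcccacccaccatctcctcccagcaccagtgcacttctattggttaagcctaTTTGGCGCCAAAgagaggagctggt
Tyms, chr9:120776084-120776203, minus strand (GRCr8): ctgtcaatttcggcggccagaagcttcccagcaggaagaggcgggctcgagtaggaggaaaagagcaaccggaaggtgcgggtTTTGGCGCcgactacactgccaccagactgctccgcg
In Mcm2 and Gins1 the capitals hold a pair of overlapping motifs on opposite strands, and in Mcm5 the motif abuts the start. A match describes these letters only. Tk1 and Chaf1b, which also rose, held none of these letters in the window.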

How the data were processed

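Per the file headers and the submitters' processing notes, spots were read with Agilent Feature Extraction 10.7. Per the file headers the deposited processed signal is an intensity with background subtracted by spatial detrending and surrogate values for dim spots, unscaled between arrays. Flags for control, outlier and well-above-background spots are other columns in the deposited files. The authors' deposited table holds log2 values, which match the scaling used here, array by array, to within a median of 0.00978.

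Here 4259 control spots of 62976 and outlier spots were left out, spots of a probe were averaged, and log2 intensity was scaled to the 75th percentile. Probes named through reference accessions took that symbol (21229 of 45598, 2233 renamed). A probe was kept where some group had it well above background on each of its arrays, and the one with the highest mean stood for its gene. Changes were fitted with limma 3.58.1 (lmFit, eBayes) in R 4.3.3, 1 mean per group over all 16 arrays, no covariates, two-sided, with 10 residual and 4.87 prior degrees of freedom. The median residual SD was 0.395. The code was tested on simulated data.

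All 42 genes are named, with, of each other list, the 3 of smallest adjusted p at 1 week in wild-type cortex and Ccne1, Ccne2, E2f1, Cdkn1a, Gmnn and Rrm2b. A further item of the rule is not reported here. The genes and lists were chosen with earlier results of these data known. Alternatives were background correction, scaling, filter, dim values, probe choice, slide, replicate number, arrays fitted, the deposited table and leaving out each array.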

Additional observations from a re-analysis of the deposited data

How the results depend on the processing

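Counts of replication genes called depend on how dim signals are treated. In the order wild-type 1 week, wild-type 3 weeks, BRCA1+/- 1 week, BRCA1+/- 3 weeks, and 3 weeks against 1 week in wild-type and in BRCA1+/- cortex, the main counts were 23, 5, 17, 7, 21 and 1. Normexp background correction gave 15, 0, 6, 1, 13 and 0. Over all genes it called 959, 609, 176 and 852 higher in the first 4 comparisons, beside 2050, 1398, 682 and 1493 in the main fit. In the time comparisons it called 265 and 5 of all genes lower, beside 446 and 19. With no filter on dim probes BRCA1+/- 1 week gave 7, BRCA1+/- 3 weeks 2, and the time comparisons 13 and 0. With dim values set at the detection limit wild-type 3 weeks gave 2, BRCA1+/- 1 week 11, BRCA1+/- 3 weeks 4, BRCA1+/- 3 against 1 week 0, and BRCA1+/- against wild-type at 1 week 1 in place of 0. Quantile normalization gave 8 at wild-type 3 weeks, among them Orc6 as lower (-0.94), where it called 1570 of all genes higher and 833 lower. The percentile taken over probes well above background on all arrays gave 8 there and 2 for BRCA1+/- 3 against 1 week. It moved the median of all genes at wild-type 1 week from -0.02 to 0.19. Over all genes it called 1846 higher and 727 lower at wild-type 3 weeks, and 27 higher and 32 lower for BRCA1+/- 3 against 1 week. For the other alternatives the counts over all genes are not given here.

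Slide as a block gave 0 for BRCA1+/- 3 against 1 week. Within slide 1 the counts were 10, 1, 4, 0, 3 and 0, and within slide 2 they were 2, 0, 0, 0, 0 and 0, from fewer arrays. Fitting only the groups compared gave 12, 9, 14, 13 and 0 for wild-type 3 weeks, BRCA1+/- 1 week, BRCA1+/- 3 weeks and the time comparisons. The 12 include Orc6, Rpa3 and Prim2 as lower (-0.79, -1.23 and -0.73), and the 14 include Orc6 as lower (-0.77). Counting only genes measured on all 4 controls, an alternative added after seeing the data, gave 12, 1, 9, 3 and 11 for the first 5. Leaving out 1 array gave 17 to 24, 1 to 9, 6 to 21, 2 to 11, 14 to 22 and 0 to 4, and 0 to 0 for genotype and interaction. The deposited table, the stricter filter and the mean of a gene's probes kept every count within 1.5 times. Of single genes, Pold1 and Ccne1 at wild-type 3 weeks changed sign with normexp, to -0.029 and -0.077. The cause of these shifts was not tested.

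Same-numbered samples did not deviate together: 8 of 36 pairs correlated above 0.1, over a range of -0.34 to 0.44, so the numbers do not pair the samples. With the replicate number as a block (replicate block) the counts were 23, 4, 14, 7, 19 and 1. The arrays' brightness limits the 13 genes that were not tested and the genes given as bounds.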
